A study of Mus musculus with 8 samples.

Results

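The 34 genes described here are classical type I interferon-stimulated genes, chosen by name as a set without the GTPases that interferon-gamma induces. All 34 are among the 23997 genes of an RNA sequencing table of mouse regulatory T (Treg) cells, the CD4 T cells defined by the transcription factor Foxp3. Sorting took CD4+YFP+ cells from spleen and draining lymph nodes of C57BL/6 mice that carry a YFP-Cre fusion at 1 Foxp3 allele and a wild-type second allele (Foxp3-YFP-Cre/+), and the labels state a purity above 97%. Deficient cells were Bcl11b f/f Foxp3-YFP-Cre/+, with both copies of Bcl11b floxed, and sufficient cells were Bcl11b f/+ Foxp3-YFP-Cre/+, with 1 floxed and 1 wild-type copy, so both groups carry the Cre and at least 1 floxed copy. Bcl11b is a zinc finger protein that regulates transcription in T cells. Cre can delete only floxed copies, so Treg cells that can lose both copies are compared with Treg cells that can lose 1. Because Cre is expressed from Foxp3, deletion is directed to cells that express Foxp3, and cells using the other Foxp3 allele carry no YFP and were not sorted. The ages and sexes were not given in the sources used here.

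Type I interferons bind a shared receptor, IFNAR, whose kinases activate STAT2. STAT2 and IRF9 are subunits of a complex, ISGF3, that binds interferon-stimulated response elements (ISREs) near its target genes. The targets include sensors of viral RNA, enzymes that block viral replication, and members of the pathway itself such as Irf7, Stat2 and the negative regulator Usp18. T cells express many of these genes at a basal level without infection, and interferon-gamma and interferon-lambda induce a number of them too.

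Each group had 4 columns of values in FPKM, a fragment count scaled for transcript length and library size, and values for 4 columns are listed in the order of replicates 1 to 4. Depth, estimated from the steps between low values, was approximately 2910000 to 12800000 fragments per column. In 3 pairs of columns the spread of log ratios was at most 1.13 times that of read sampling, against 1.99 to 2.55 times in the other pairs within a group. These pairs, deficient 1 with 3, deficient 2 with 4 and sufficient 1 with 3, were each taken as 1 sample by their mean, so 2 deficient and 3 sufficient libraries remain. The labels do not state separate animals, and p-values then reflect only how far these libraries scatter, which may be technical. Of 10614 genes tested with limma, 205 were higher and 74 lower in deficient libraries at a Benjamini-Hochberg adjusted p under 0.05, which is 2.63% of the genes tested. Bcl11b measured 24.2, 19.3, 24.6 and 18.7 FPKM in the deficient columns and 42.4, 46.5, 42.4 and 39.1 FPKM in the sufficient columns (adjusted p = 0.0238), so the targeted gene was lower in every deficient column and at 50.8% of the sufficient mean. The value covers the whole gene and does not show which exons were read. T cell genes were abundant in both groups, with Cd3e at 253 ± 4.95 (deficient) and 278 ± 19.4 FPKM (sufficient; SD, n = 2 and 3) and Foxp3 at 153 ± 0.517 and 187 ± 18.8 FPKM. Their levels were not equal, however, and the T cell marker Ctla4 was called lower in deficient libraries (adjusted p = 0.0174). Its mean was 111 ± 11.2 FPKM there and 375 ± 102 FPKM for the sufficient group.

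The promoters of several members hold the core sequence of the ISRE, and those of the members described in full below are shown because they are the part of these genes that ISGF3 is known to bind. RefSeq windows of 250 bases before to 50 after the gene start (GRCm38.p6) were found by symbol for 25 of the 34 members. They were searched on both strands for GAAA, then any 2 bases, then GAAA (TTTC, any 2 bases, TTTC on the other strand), and overlapping matches were kept. The stretches below are 5′ to 3′ on the strand of the gene, end before the start, and have the matches in capitals. They lie at chr19:34583353-34583436 (plus strand) for Ifit3, chr12:26456543-26456592 (minus strand) for Rsad2, chr5:120777705-120777754 (minus strand) for Oas3 and chr10:128270256-128270305 (plus strand) for Stat2.
Ifit3: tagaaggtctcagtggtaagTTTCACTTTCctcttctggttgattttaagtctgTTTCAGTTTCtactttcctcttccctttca
Rsad2: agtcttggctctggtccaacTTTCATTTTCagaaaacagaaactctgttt
Oas3: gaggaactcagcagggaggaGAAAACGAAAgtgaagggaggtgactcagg
Stat2: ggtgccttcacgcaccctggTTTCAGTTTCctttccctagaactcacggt

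The Ifit3 stretch holds 2 matches and the others 1 each. A match was present in 12 of the 25 members with a window (48.0%) and in 314 of 8080 tested genes with a window (3.89%). The 12 were Ifit3, Rsad2, Oas3, Ddx58, Eif2ak2, Stat2, Isg15, Ifit1, Ifih1, Trim30a, Oas1a and Bst2. In Ddx58, Eif2ak2 and Ifih1 the match lay after the start. The median log2 fold change (the deficient minus the sufficient mean of log2(FPKM + 1)) was 0.42 over the 12 members with a match, from -0.00 for Bst2 to 1.04 for Rsad2, and 0.14 over the 13 without one, from -0.23 to 0.73. Members with and without a match therefore overlapped in their differences. The windows of Mx1, Zbp1, Rtp4, Oas2, Parp14, Parp9, Usp18, Dhx58 and Ifi27l2a were not analysed here.

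The interferon-stimulated genes lay higher in deficient cells as a set, by small amounts, and 1 of them passed the test over all genes. All 34 passed the filter of a mean of at least 1 FPKM, and their mean levels over the 5 libraries ran from 1.94 FPKM for Ifi44 to 778 FPKM for Ifi27l2a. In 22 members both deficient libraries lay above all 3 sufficient libraries, against 18.9% of all genes tested, and in 0 members both lay below, against 17.9%. With the 8 columns taken one by one, 18 members did not overlap between groups, all higher in deficient cells, against 12.5% of all genes. The log2 fold change was above 0 in 30 of 34 members, against 47.9% of genes tested, and its median was 0.33, with quartiles of 0.12 and 0.55, against -0.01 over all genes. Lgals3bp was called higher and 0 members were called lower, against 1.93% and 0.697% of genes tested; at an unadjusted limma p under 0.05 the counts were 18 members higher and 0 lower, against 9.36% and 8.45%. The members were chosen with earlier results of these data known, so their direction is a description. Scaling the libraries to equal totals moved the median of all genes to 0.18 and that of the members to 0.53, so the distance between them was 0.35 there and 0.34 with the values as deposited.

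The number of members called depended on how libraries were treated. With libraries scaled to equal totals 9 members were called, all higher, against 3.21% of genes higher and 0.282% lower. Quantile normalization gave 4 members higher against 1.92% of genes higher and 0.801% lower, and robust empirical Bayes gave 5 against 2.11% and 0.914%. Without sufficient replicates 1 and 3 the calls were Oasl1, Rsad2 and Cmpk2, against 1.14% and 0.432% of genes. With the 8 columns as separate libraries 15 members were called higher against 9.46% of genes higher and 7.98% lower, and with a block for the replicate number 13 were called higher and Isg20 lower against 7.31% and 6.05%; these fits count near-identical columns as separate. Both deficient libraries exceeded all sufficient ones in 26 members without sufficient replicates 1 and 3 (23.2% of genes) and in 23 without sufficient replicate 4 (25.1%). The remaining deficient library exceeded them in 26 members without deficient replicates 1 and 3 (29.9%) and in 23 without deficient replicates 2 and 4 (30.2%). Irf9, Ifi35 and Bst2 had a positive log2 fold change with equal totals, where 33 of 34 members did.

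**Figure D1:**
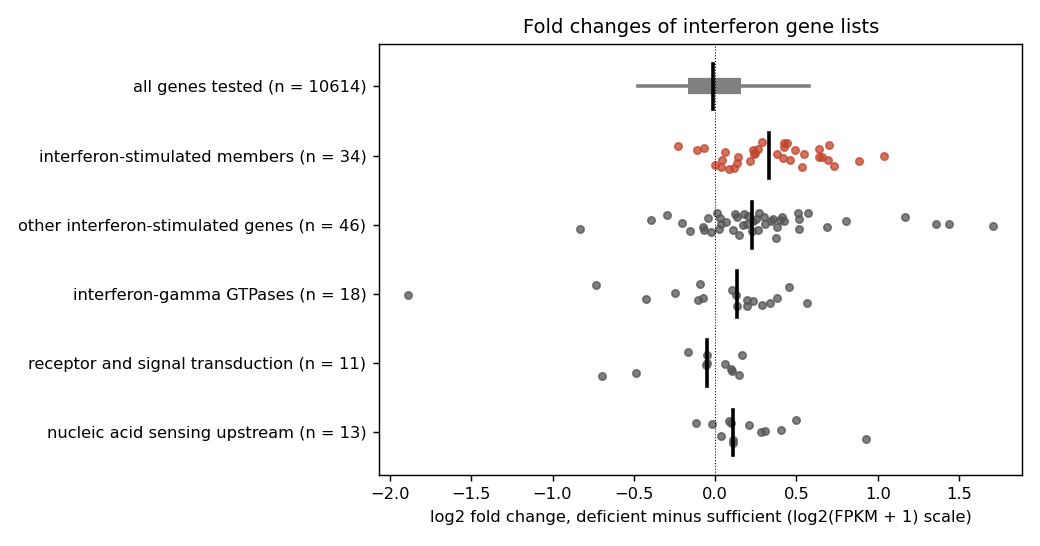
Log2 fold change (from log2(FPKM + 1), deficient minus sufficient) of each tested gene in 5 lists, with 1 point per gene and a black bar at the median; for all genes tested the thick grey bar spans the quartiles and the thin line the 5th to 95th percentile. The 34 members centre on 0.33 and the 46 other interferon-stimulated genes on 0.23, while all genes centre on -0.01.

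Lgals3bp (ENSMUSG00000033880.11, chr11:118392751-118402092 in the GENCODE M21 annotation of GRCm38, minus strand), a secreted glycoprotein that binds galectins, was the member called higher. It measured 114, 90.1, 107 and 92.9 FPKM in the deficient columns and 58.9, 69.4, 60.1 and 63.8 FPKM in the sufficient columns. Every deficient column lay above every sufficient one, and deficient replicates 1 and 3 were the highest. The log2 fold change was 0.64 ± 0.12 (SE, adjusted p = 0.0485), or 1.57 times the sufficient mean. That call is at the edge of the threshold: leaving out a column or library moved its adjusted p between 0.0446 and 0.281, and it ended without deficient replicate 3 (0.0559) or 4 (0.0575), without sufficient replicate 2 (0.0760), 3 (0.0532) or 4 (0.110), and when any averaged library was left out (0.129 to 0.281). Lgals3bp was 1.20 times as high in deficient replicates 1 and 3 as in 2 and 4, the highest such ratio among the members.

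The Ifit genes encode tetratricopeptide proteins that bind viral RNA and one another. Ifit3 (chr19:34583531-34588731, plus strand) measured 53.6, 53.7, 56.5 and 58.9 FPKM in the deficient columns and 33.2, 22.9, 32.5 and 34.9 FPKM in the sufficient columns. All deficient columns were well above the highest sufficient column, and sufficient replicate 2 was the lowest. The log2 fold change of Ifit3 was 0.88 ± 0.18 (SE, adjusted p = 0.0550), with means of 55.7 ± 0.862 and 30.2 ± 6.42 FPKM (SD, n = 2 and 3), so it did not pass. Ifit1 had means of 31.1 ± 6.64 and 22.9 ± 2.77 FPKM (log2 fold change 0.42 ± 0.16 SE), and its deficient replicate 1, at 25.3 FPKM, lay below sufficient replicate 3, at 26.2 FPKM. Without deficient replicates 2 and 4 the log2 fold change of Ifit1 was 0.21. Ifit2 had means of 22.7 ± 0.355 and 19.0 ± 1.49 FPKM and a log2 fold change of 0.24 (SE 0.11). The 3 genes lie on the plus strand of chromosome 19, with 7111 bases between Ifit2 and Ifit3 and 52139 between Ifit3 and Ifit1. Of the 50-base words of the longest Ifit3 transcript 51.2% also occur in Ifit3b, a related gene not analysed here, so reads of that copy could be counted under Ifit3.

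Among the transcription factors, Irf7 and Stat2 sat higher in every deficient column and Irf9 did not. Irf7 (chr7:141262706-141266481, minus strand), which amplifies interferon production, measured 105, 95.3, 108 and 96.8 FPKM in the deficient columns and 71.2, 71.9, 67.8 and 74.2 FPKM in the sufficient columns. The lowest deficient column thus stood clear of the highest sufficient one, with an adjusted p of 0.0588 and a log2 fold change of 0.49 ± 0.10 SE. Stat2, the ISGF3 subunit that carries the activation domain, measured 40.5, 37.2, 40.0 and 36.5 FPKM in the deficient columns and 26.6, 30.1, 29.1 and 30.3 FPKM in the sufficient columns (log2 fold change 0.38 ± 0.10 SE, adjusted p = 0.124). Irf9, the DNA-binding subunit, measured 73.5, 76.5, 79.6 and 77.7 FPKM in the deficient columns and 85.3, 72.7, 85.8 and 83.9 FPKM in the sufficient columns. Its deficient columns fell within the range of the sufficient ones. The log2 fold change of Irf9 was -0.07 ± 0.11 (SE, adjusted p = 0.796), and 0.14 with equal totals, so its sign depends on the scaling.

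**Figure D2:**
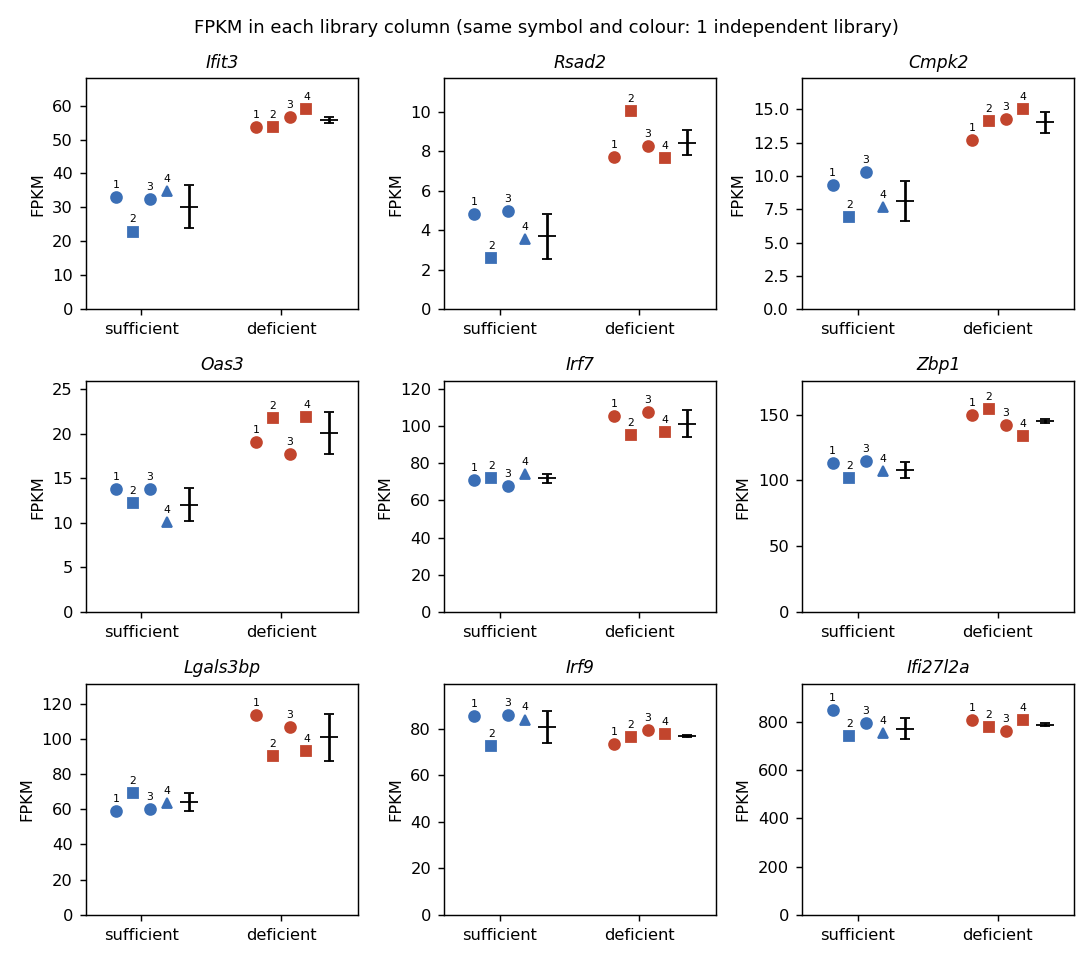
FPKM (vertical axes, from 0) of 9 members in each of the 8 columns, numbered by replicate, with the same symbol and colour for columns averaged as 1 library and black bars for the group mean ± SD (n = 3 sufficient and 2 deficient). Ifit3, Rsad2, Cmpk2, Oas3, Irf7, Zbp1 and Lgals3bp do not overlap between groups, while Irf9 and Ifi27l2a do.

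Rsad2 and Cmpk2 had the highest and the third highest fold changes of the set. Rsad2 encodes viperin, which makes a chain-terminating nucleotide, and Cmpk2 a mitochondrial nucleotide kinase; the genes lie 12751 bases apart on opposite strands of chromosome 12. Rsad2 (chr12:26442746-26456452, minus strand) measured 7.72, 10.1, 8.27 and 7.69 FPKM in the deficient columns and 4.80, 2.60, 4.98 and 3.58 FPKM in the sufficient columns. That is 2.29 times the sufficient mean, at a low level (log2 fold change 1.04 ± 0.22 SE, adjusted p = 0.0589). Cmpk2 (chr12:26469204-26479837, plus strand) measured 12.7, 14.1, 14.3 and 15.0 FPKM in the deficient columns and 9.30, 6.88, 10.3 and 7.70 FPKM in the sufficient columns (log2 fold change 0.73 ± 0.16 SE, adjusted p = 0.0648). For both genes all deficient columns exceeded all sufficient ones, and sufficient replicate 2 was lowest.

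The other members of this effector group differed from one another. Eif2ak2, the RNA-activated kinase PKR that halts translation, had means of 18.6 ± 0.184 and 13.6 ± 1.17 FPKM (log2 fold change 0.42 ± 0.11 SE) with no overlap between columns. Samhd1, which degrades deoxynucleotides, was abundant in both groups at 327 ± 32.8 and 319 ± 35.8 FPKM. Isg20, an exonuclease, had the most negative fold change of the set, -0.23 (SE 0.17, adjusted p = 0.540), with means of 36.8 ± 3.47 and 43.9 ± 8.59 FPKM, and its groups overlapped.

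The 2-5A synthetases make the messenger that activates RNase L, and Oasl1 and Oasl2 are related proteins. Oas3 (chr5:120753098-120777661, minus strand) measured 19.1, 21.7, 17.7 and 21.8 FPKM in the deficient columns and 13.8, 12.2, 13.8 and 10.1 FPKM in the sufficient columns. Its groups did not overlap, with deficient replicates 2 and 4 the highest (log2 fold change 0.70 ± 0.15 SE, adjusted p = 0.0685). Oas2, 3244 bases from Oas3 on chromosome 5, had means of 17.2 ± 1.24 and 10.99 ± 3.85 FPKM (log2 fold change 0.66 ± 0.28 SE), and sufficient replicate 4, at 6.58 FPKM, was far below the other sufficient columns. Without that library the log2 fold change of Oas2 was 0.36. Oasl1, which restrains Irf7 translation, had means of 13.4 ± 1.63 and 8.10 ± 2.37 FPKM (log2 fold change 0.69 ± 0.21 SE). Its neighbour Oasl2 measured 4.23 ± 1.77 and 3.76 ± 1.10 FPKM (0.12, SE 0.27), and Oas1a 12.05 ± 2.83 and 11.3 ± 2.54 FPKM (0.08, SE 0.21). Both of these overlapped between groups. The difference between Oasl1 and Oasl2 was not tested. Oas1a shares 57.6% of its 50-base words with Oas1g, which was listed at 0 to 0.277 FPKM, so the split of reads between them is uncertain.

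The sensors of foreign nucleic acid were expressed in all columns, and 3 of the 4 did not overlap between groups in either the 5 libraries or the 8 columns, against 18.9% and 12.5% of genes tested that lay higher without overlap. Zbp1, a sensor of Z-form nucleic acid that can trigger cell death, measured 149.7, 154, 142 and 134 FPKM in the deficient columns and 113, 102, 115 and 107 FPKM in the sufficient columns (log2 fold change 0.43 ± 0.10 SE, adjusted p = 0.0877). Ddx58, which encodes RIG-I, measured 42.2, 46.3, 45.8 and 47.5 FPKM in the deficient columns and 33.7, 34.3, 36.3 and 30.3 FPKM in the sufficient columns (log2 fold change 0.44 ± 0.11 SE, adjusted p = 0.0939). In both genes the lowest deficient column was above the highest sufficient one. Ifih1, which encodes MDA5, had means of 12.2 ± 0.376 and 9.85 ± 0.830 FPKM (0.29, SE 0.12). Dhx58, which encodes their regulator LGP2, had means of 20.7 ± 1.23 and 18.8 ± 2.06 FPKM (0.13, SE 0.12), with overlap.

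Isg15, the ubiquitin-like protein that is attached to targets after interferon, had means of 80.0 ± 3.02 and 58.6 ± 11.7 FPKM (log2 fold change 0.46 ± 0.17 SE). Its columns overlapped, since deficient replicate 3 was at 67.0 FPKM and sufficient replicate 1 at 69.6 FPKM. Usp18, the protease that removes Isg15 and also blocks the receptor, had means of 48.5 ± 0.403 and 41.5 ± 9.27 FPKM (0.24, SE 0.18). Without sufficient replicate 2 the log2 fold changes of Isg15 and Usp18 were 0.29 and 0.10. The sufficient columns of Usp18 were spread from 33.6 to 53.5 FPKM and spanned the deficient ones.

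Of the membrane and GTPase effectors, Mx1 and Rtp4 sat higher and Bst2 did not differ beyond its spread. Mx1, the GTPase of this group, measured 12.2, 12.3, 13.4 and 12.6 FPKM in the deficient columns and 8.41, 7.92, 8.05 and 9.04 FPKM in the sufficient columns (log2 fold change 0.54 ± 0.12 SE, adjusted p = 0.0656). The spread within each group was small beside the gap. Rtp4, a receptor chaperone, measured 49.4, 49.6, 48.2 and 46.1 FPKM in the deficient columns and 35.2, 27.6, 38.7 and 34.4 FPKM in the sufficient columns (0.55, SE 0.14, adjusted p = 0.1004). Sufficient replicate 2 was again the lowest column. Bst2, which encodes the tetherin that holds budding virus at the cell surface, had means of 120.1 ± 1.52 and 120.5 ± 8.80 FPKM (-0.00, SE 0.11).

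The PARP proteins and Dtx3l had the narrowest range. Parp9 and the ubiquitin ligase Dtx3l form a complex, and their gene models overlap head to head on chromosome 16. Parp14, Parp9 and Dtx3l had log2 fold changes of 0.24 (SE 0.11), 0.21 (SE 0.11) and 0.06 (SE 0.12), and Parp9 was at 0.12 without deficient replicates 2 and 4. Use of strand in the counting was not given in the sources used here, so reads from the overlap of Parp9 and Dtx3l may not be told apart. In the remaining group, Ifi44 had means of 2.73 ± 0.367 and 1.41 ± 0.432 FPKM (0.64, SE 0.22), near the filter, and Trim30a, a regulator of NF-kB signalling, 67.5 ± 2.01 and 56.2 ± 5.56 FPKM (0.26, SE 0.11). Xaf1, a pro-apoptotic protein, and Ifi35 overlapped between groups at 0.14 (SE 0.11) and -0.11 (SE 0.12). Ifi27l2a, the most abundant member, measured 806, 779, 762 and 807 FPKM in the deficient columns and 847, 739, 793 and 753 FPKM in the sufficient columns. Its columns were interleaved (0.03, SE 0.12, adjusted p = 0.919).

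**Figure D3:**
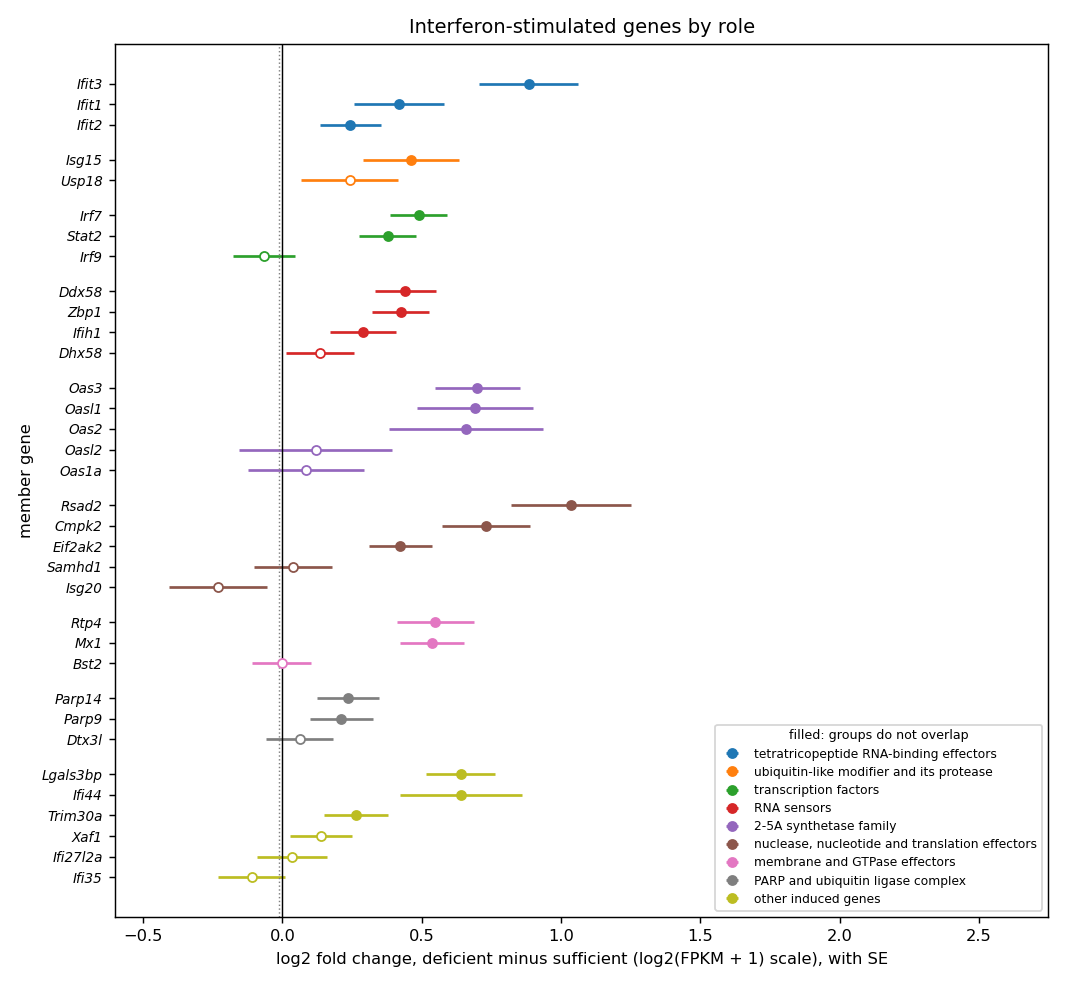
Log2 fold change ± SE of the 34 members, from log2(FPKM + 1) in deficient minus sufficient libraries, grouped and coloured by role; filled points mark the 22 members whose 2 deficient libraries both lie above all 3 sufficient libraries. The dotted line is the median of all genes tested, -0.01, and Rsad2 at 1.04 and Isg20 at -0.23 are the ends of the range.

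The 17 members with the lower levels, 1.94 to 36.8 FPKM, had a median log2 fold change of 0.42, and the 17 with the higher levels, 36.9 to 778 FPKM, had one of 0.24. The 3 most abundant members, Ifi27l2a, Samhd1 and Zbp1, had log2 fold changes of 0.03, 0.04 and 0.43.

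Members also moved together among the sufficient libraries. Sufficient replicate 2 was the lowest of the 5 libraries in 23 of 34 members, against 18.3% of genes tested; it was the lowest of the 3 sufficient libraries in the same number, against 38.2% of genes, and the library of sufficient replicates 1 and 3 was the highest of the 3 sufficient ones in 25 members, against 28.5% of genes tested. Without sufficient replicate 2 the median of the members was 0.30, 22 members were higher without overlap (24.6% of genes) and 3 were lower without overlap (27.3% of genes). In no member was a deficient library the lowest of the 5. Over all genes tested, the library of deficient replicates 1 and 3 was lowest in 23.6% and that of 2 and 4 in 19.7%.

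**Figure D4:**
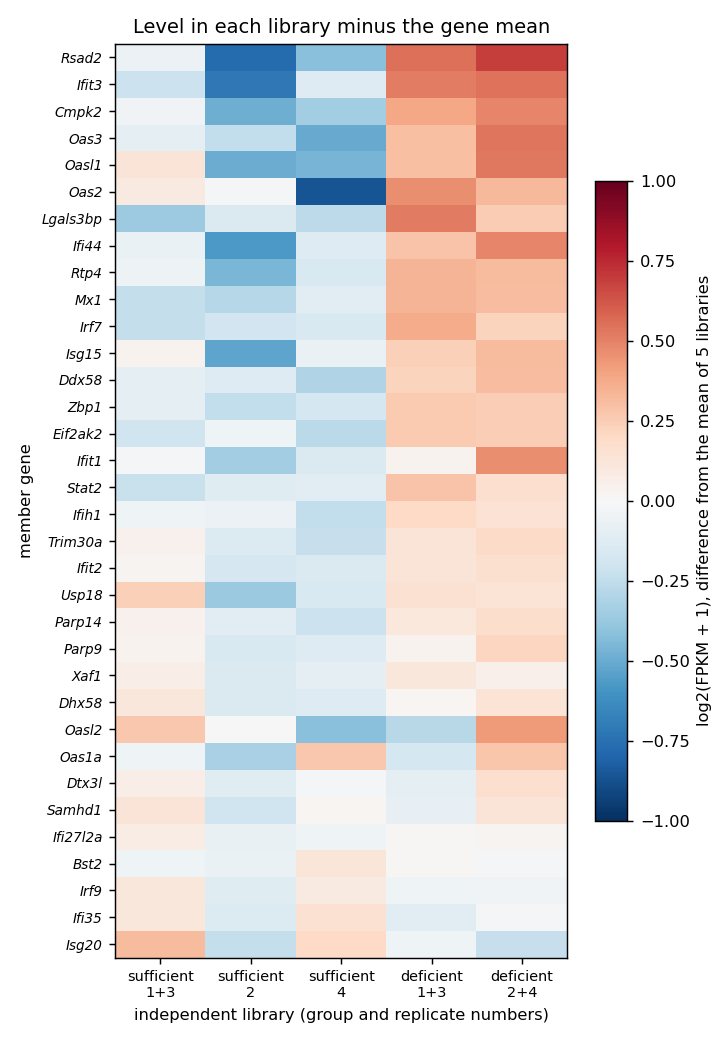
Level of each member in the 5 independent libraries as log2(FPKM + 1) minus the mean of the 5 libraries for that gene (colour scale from -1 to 1), ordered by fold change from top to bottom. Sufficient replicate 2 is the lowest of the 5 libraries in 23 of 34 genes, and both deficient libraries are above the sufficient ones in 22.

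The rest of the pathway was taken from lists written out with the members. None of 18 type I interferon ligand genes passed the filter, and 13 of them, Ifnb1 and Ifna4 included, were listed at 0 in all 8 columns. Of 11 genes of the receptor and its signalling, 0 were called, against 2.63% of all genes tested. The receptor chains Ifnar1 and Ifnar2 averaged 48.1 ± 0.0128 and 41.1 ± 0.619 FPKM in deficient cells, against 50.4 ± 5.54 and 42.6 ± 2.18 FPKM (log2 fold changes of -0.06, SE 0.12, and -0.05, SE 0.10, which are 0.15 and 0.16 with equal totals). Of the 4 genes with the lowest p in that list, Socs3 and Socs1, inhibitors of JAK signalling, measured 65.4 ± 13.2 and 23.2 ± 7.99 FPKM in deficient against 91.3 ± 6.05 and 37.7 ± 7.46 FPKM in sufficient libraries (adjusted p = 0.143 and 0.192), and Ptpn11 and Jak1 had log2 fold changes of 0.15 and 0.17. Ifnar1 and Ifnar2 were named for their place in the pathway after their values were seen.

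Of 13 tested genes of nucleic acid sensing upstream, 0 were called, against 2.63% of all genes tested. In 11 the log2 fold change was above 0, against 47.9% of genes tested, with a median of 0.11. Tlr9 (0.949 in deficient against 0.178 FPKM in sufficient libraries) and Tlr3 (0.318 against 0.138 FPKM) lay below the filter and were not tested. Unc93b1, the chaperone of endosomal Toll-like receptors, measured 26.1 ± 7.75 against 13.2 ± 3.51 FPKM (adjusted p = 0.124), and Irf8 measured 15.2 ± 5.29 against 10.2 ± 1.0007 FPKM. The Irf8 difference was larger in deficient replicates 1 and 3 (18.9 FPKM) than in 2 and 4 (11.5 FPKM), and its log2 fold change of 0.50 was 0.16 without the former. Mavs, the adaptor of RIG-I and MDA5, measured 15.1 ± 1.29 against 12.3 ± 0.992 FPKM, and Tmem173, which encodes STING, 151 ± 11.03 against 123 ± 17.0 FPKM.

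Of 46 other interferon-stimulated genes tested, 4 were called higher and 0 lower, against 1.93% and 0.697% of all genes, and their median log2 fold change was 0.23. It was above 0 in 37 and below in 9, against 47.9% of genes tested above 0. In 20 the deficient libraries lay above all sufficient ones, against 18.9% of genes, and in 3 below, against 17.9%. Of those 3, Ube2l6, named after its values were seen, measured 7.38 ± 2.08 against 13.8 ± 2.71 FPKM (log2 fold change -0.83, adjusted p = 0.0945). Slfn9, a Schlafen family gene, rose from 3.15 ± 0.439 to 10.3 ± 1.90 FPKM, with a log2 fold change of 1.44 (SE 0.17) and an adjusted p of 0.0126. Ifi204, a DNA sensor of the p200 family also abundant in myeloid cells, rose from 0.280 ± 0.0779 to 2.28 ± 0.0391 FPKM (1.36, SE 0.21, adjusted p = 0.0259). Ifitm3, which blocks virus entry, rose from 10.8 ± 2.88 to 25.1 ± 2.86 FPKM (1.17, SE 0.22, adjusted p = 0.0437), and Parp12 from 5.04 ± 0.457 to 8.73 ± 0.512 FPKM (0.69, SE 0.13, adjusted p = 0.0464). With a column or library left out their adjusted p reached 0.0982, 0.0593, 0.261 and 0.277. The GTPases induced by interferon-gamma went both ways: of 18 tested, 0 were called higher and 1 lower, against 1.93% and 0.697% of all genes, with a median of 0.13. Gbp2b fell from 10.3 ± 5.76 to 1.83 ± 0.131 FPKM, with an adjusted p of 0.0463 (up to 0.247 with a library left out) and a log2 fold change of -1.89 (SE 0.36), and Gbp3 and Gbp5 measured 15.5 ± 2.54 and 18.1 ± 1.08 FPKM in deficient against 26.4 ± 4.04 and 24.7 ± 2.13 FPKM in sufficient libraries (adjusted p = 0.0703 and 0.123). Gbp9 measured 73.4 ± 12.3 against 53.2 ± 7.12 FPKM. The difference between these lists and the members was not tested.

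Markers of macrophages and NK cells were also higher in deficient libraries, while summed dendritic cell, B cell and neutrophil markers overlapped between groups. The summed level of 19 macrophage markers was 398 and 760 FPKM in the deficient libraries and 28.8 to 104 FPKM in the sufficient ones, with Lyz2 and C1qa the most abundant, and none of the 19 was at 0 throughout. Of 17 tested, 9 were called higher and 0 lower, against 1.93% and 0.697% of all genes tested. All 17 had a log2 fold change above 0, against 47.9% of genes tested, with a median of 2.60. Lyz2 was among those called (110.1 ± 67.5 against 8.64 ± 5.93 FPKM, adjusted p = 0.0304) and C1qa was not (67.8 ± 40.9 against 7.74 ± 5.92 FPKM, adjusted p = 0.0991). For 10 plasmacytoid dendritic cell markers, which include the member Bst2, the sums were 189.8 and 206 FPKM against 169 to 183 FPKM, and Bst2 and Ccr9 were the most abundant. Of 7 tested, 2 were called higher and 0 lower, against 1.93% and 0.697% of all genes tested. Of the 7, 5 had a log2 fold change above 0 and 2 below, against 47.9% of genes tested above 0. The called markers were Siglech, named after its values were seen, at 4.32 ± 2.79 against 0.146 ± 0.126 FPKM, and Klk1, at 3.15 ± 2.15 FPKM in deficient libraries and listed at 0 in all sufficient columns. Ccr9 measured 30.8 ± 5.71 against 18.6 ± 6.58 FPKM (adjusted p = 0.213), and Pacsin1, also named after its values were seen, 17.1 ± 3.25 against 23.7 ± 3.87 FPKM (log2 fold change -0.44, adjusted p = 0.2498). All 11 of these macrophage and plasmacytoid marker calls ended with some column or library left out, where the highest adjusted p was 0.196 for Lyz2, 0.0738 for Siglech and 0.0870 for Klk1. The sums for dendritic cell markers were 261 and 312 against 244 to 386 FPKM, for B cell markers 19.8 and 23.2 against 15.4 to 27.3 FPKM, and for neutrophil markers 7.43 and 38.3 against 3.75 to 42.9 FPKM. Of 6 dendritic cell markers tested, 1 was called higher and 1 lower, against 1.93% and 0.697% of all genes tested. Their median log2 fold change was 1.36, and 5 of the 6 were above 0, against 47.9% of genes tested. Of 4 B cell markers tested, 1 was called higher and 0 lower, against 1.93% and 0.697% of all genes tested. Of 5 neutrophil markers tested, 0 were called, against 2.63% of all genes tested. For 10 NK cell markers the sums were 124 and 138 FPKM against 13.1 to 26.7 FPKM, and for 8 T cell markers 2108 and 2295 FPKM against 2533 to 2799 FPKM. Of the 8 T cell markers, 6 had a log2 fold change below 0 and 2 above, against 47.9% of genes tested above 0, with a median of -0.23. In 5 the deficient libraries lay below all sufficient ones, against 17.9% of genes tested, and in 1 above, against 18.9%. Ctla4, at -1.72, was called lower and 0 were called higher, against 0.697% and 1.93% of all genes tested. That call ended with some column or library left out. Of 8 NK cell markers tested, 5 were called higher and 0 lower, against 1.93% and 0.697% of all genes tested, with a median log2 fold change of 1.87. Values with libraries left out are not given here for the NK cell markers. In bulk RNA of a sorted population, a change in the number of such cells cannot be told apart from a change in RNA per cell. Macrophage markers differed between the deficient libraries, with a median ratio of replicates 1 and 3 over 2 and 4 of 2.02. The members had a median ratio of 0.968, from 0.543 for Oasl2 to 1.20 for Lgals3bp, and 21 of 34 were higher in replicates 2 and 4. For 6 plasmacytoid dendritic cell markers, Bst2 left out, that ratio was 1.64, for 8 T cell markers 0.952 and for 8 NK cell markers 0.674. The part of other cells in the level of the members was not tested beyond these values.

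**Figure D5:**
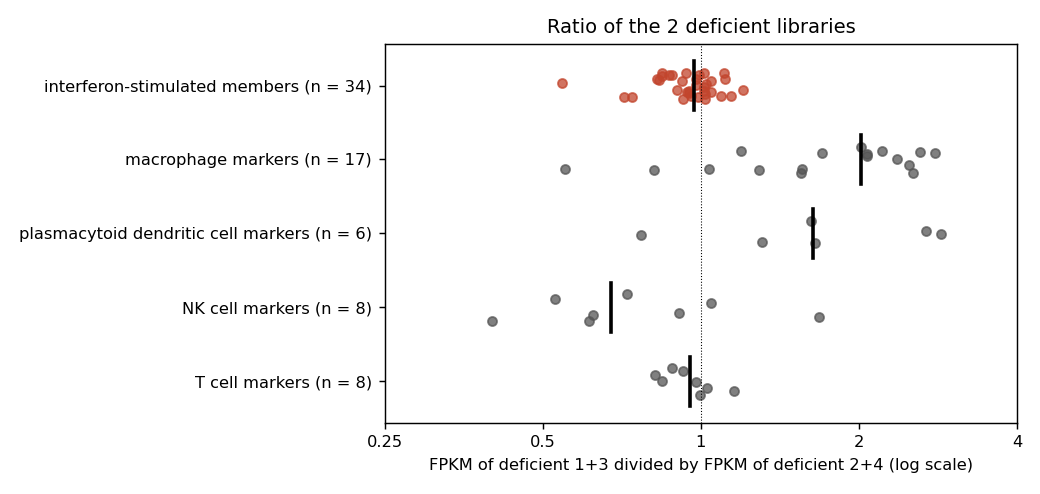
Ratio of FPKM in deficient replicates 1 and 3 over deficient replicates 2 and 4 (log axis) for each tested gene of 5 lists, members left out of the marker lists, with 1 point per gene and a black bar at the median. Macrophage markers centre on 2.02 and NK cell markers on 0.674, while the members centre on 0.968.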

How the data were processed

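The authors deposited FPKM values, as their table is named and its values allow. Tools named in the submitters' processing notes were STAR 2.5.1, Cuffdiff 2.2.1 and Cuffnorm 2.2.1, with Trim Galore 0.4.2, cutadapt 1.12 and FastQC, on mm10. Settings, annotation and any scaling between libraries were not given in the sources used here. Per the labels' protocols, libraries came from total RNA with a stranded kit and 15 cycles of PCR. The table has 16 value columns, of which 8 carry the name of a sample; the other 8 belong to no sample here and stayed out.

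The members, lists and tests were chosen with earlier results of these data known. Columns of a group whose spread of log ratios was under 1.5 times that of read sampling, for genes at 150 to 500 estimated reads in the shallower column, were averaged. Read numbers came from the value of 1 fragment, estimated from low FPKM of 3425 genes with a single transcript in GENCODE M21. Between 64.7% and 76.3% of those low values lay within 0.1 of a whole number of fragments, so no count model was run and depth is approximate. The limma test (version 3.58.1, R 4.3.3) used log2(FPKM + 1) of genes averaging 1 FPKM or more (trend, group as the only term, two-sided, Benjamini-Hochberg over all genes tested). This scale understates the change of low genes. The code was also run on simulated data with the same spread for every gene, so that run does not measure how the test performs on these libraries. With 2 libraries against 3, an exact permutation test cannot go below p = 0.1.

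Values in every column are given for Bcl11b, the 10 members with the lowest limma p, the most abundant member, Irf7, Irf9 and Stat2. Of the pathway lists the up to 4 genes with the lowest p are named. The mean and SD of a group are over its independent libraries. Alternatives were another pseudocount, no filter, other scalings, robust variance, separate columns with and without a block, and libraries left out.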

Additional observations from a re-analysis of the deposited data

How the results depend on the processing

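The median log2 fold change of the members stayed above 0 in all 18 alternatives, at 0.28 to 0.53, with the highest value at equal totals. Lgals3bp lost its call in 10 of them, and its log2 fold change ran from 0.51 to 0.85 over all 18. The members called numbered 0 with a pseudocount of 0.1 FPKM or no filter, 9 with equal totals (3.21% of genes higher), 4 with quantile normalization (1.92%), 5 with robust empirical Bayes (2.11%) and 15 with the 8 columns as separate libraries (9.46%); they ranged from 0 to 3 with a column or library left out. All genes called numbered 182 with a pseudocount of 0.1 FPKM, 99 with no filter and 1851 with separate columns, and 8 to 297 with a column or library left out (80 and 133 without sufficient replicate 2 or 4, 16 and 8 without the library of deficient replicates 1 and 3 or of 2 and 4, 167 without that of sufficient replicates 1 and 3). With equal totals 341 genes were higher and 30 lower, against 205 and 74 as deposited. Bcl11b kept its direction in all alternatives and lost its call with no filter (-0.95, adjusted p = 0.0726), with equal totals (-0.75, 0.0815), without sufficient replicate 2 (-0.89, 0.0602) and when any averaged library was left out, at -1.13 to -0.78. Irf9 turned to 0.14 with equal totals. The cause of these changes was not tested. Leaving out a whole library lowers the residual degrees of freedom, while leaving out 1 column of an averaged pair does not. With 1 deficient library left, it is assumed to vary like the other group. Depth is an estimate, so no counting interval is given.

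The replicate numbers were not taken as pairs. Deviations of same-numbered columns correlated at 0.03 to 0.13, and 3 of 4 deficient columns correlated best with their own number. With the 8 columns and a replicate block, 1418 genes and 14 members were called, 13 higher and Isg20 lower.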
